A study of Homo sapiens with 2 samples.

Results

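The 10 genes described here encode intermediate filament proteins: the simple-epithelial keratins KRT7, KRT8, KRT18 and KRT19, the type III proteins vimentin (VIM) and desmin (DES), nestin (NES), and the nuclear lamins LMNA, LMNB1 and LMNB2. They were chosen by name, and each of the 10 symbols matched 1 of the 62700 genes in the gene table. Polyadenylated RNA had been sequenced from TCam-2 cells, an established human line derived from a seminoma, a tumour of male germ cells, labelled DDX53 overexpression. The cells had been transduced with FLAG-tagged DDX53, a DEAD-box RNA helicase. The only group holds 2 replicate libraries, and nothing in the labels says that they came from separate cultures. The test used between them therefore sets a difference of 2 libraries against counting error alone, and that difference may be technical. The promoter of the construct is not given in the sources used here, and the study's cells with GFP-FLAG and its non-transduced cells, which belong to another series, were not analysed here, so no effect of DDX53 was measured.

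Intermediate filaments are rope-like polymers of coiled-coil proteins. Keratins assemble only as pairs of a type I and a type II chain, and KRT8 with KRT18 is the pair of simple epithelia and of many early embryonic cells. Vimentin and desmin can polymerise alone, in mesenchymal and in muscle cells, and nestin joins other chains in neural and muscle progenitors. Lamins line the inner face of the nuclear envelope. B-type lamins are found in nearly all cells, while A-type lamins, made from LMNA by alternative splicing, are usually low in early embryonic cells.

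The libraries held 24137664 and 22198929 reads in genes, in replicate 1 and replicate 2. Levels are given as CPM, reads scaled to the same total of reads in genes for each library. Detection meant that neither library was below 1 CPM, which held for 13604 genes. DDX53 itself had 146 and 147 reads, or 6.05 and 6.62 CPM. All 10 markers of seminoma and germ cells were detected, from a preset list that holds POU5F1, TFAP2C and SOX17, and they summed to 5735 and 5707 CPM. All 9 markers of simple epithelium were detected as well, with EPCAM at 745 ± 7.82 CPM (SD, n = 2) and CDH1 at 318 ± 14.3 CPM (SD, n = 2). Of 8 muscle markers 1 was detected, CNN1, and MYOG was at 0 reads. Of 6 neural progenitor markers 1 was detected, SOX1, and SOX10 was at 0 reads. Of 9 fibroblast and stroma markers 5 were detected, led by COL1A2 at 439 ± 22.2 CPM (SD, n = 2), while DCN had 1 read in each library and FAP had 0.

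Of the 10 genes, 9 were detected, and together the 10 took 0.347% of the reads in replicate 1 and 0.354% in replicate 2. The exception was DES. Reads of different genes can be compared only per length, so CPM was divided by the length of the annotated transcript with the longest coding sequence, in kilobases (CPM/kb). On that scale the order from the top was KRT18, KRT8, VIM, LMNA, LMNB2, KRT19, LMNB1, KRT7, NES and DES. The ranges of the 2 libraries were separate for 8 of the 9 pairs of neighbours. These ranges do not cover the choice of length, which was made after the data were seen. Per kilobase of merged exons KRT8 was in place 5, after KRT18, LMNB2, LMNB1 and VIM. By TPM summed per gene, the scale planned at first, KRT8 was in place 9. KRT19 and LMNB1 overlapped, at 112 ± 2.46 and 110 ± 3.35 CPM/kb (SD, n = 2 each).

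**Figure D1:**
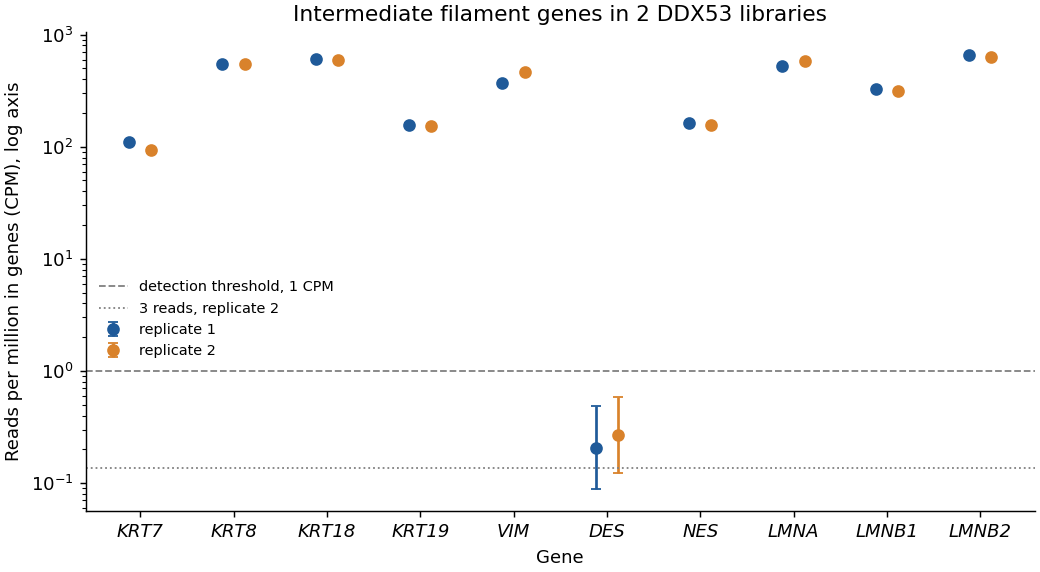
CPM (log axis) for the 10 genes, with 1 point per library and 95% Wilson intervals, which are hidden by the points for all genes but DES, a dashed line at 1 CPM and a dotted line at 3 reads in replicate 2. DES lies below the detection threshold of 1 CPM in both libraries, and the other 9 genes lie between 92.6 and 661 CPM.

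The type I chain of the simple-epithelial pair came first. KRT18 (ENSG00000111057.11; plus strand of chromosome 12, 52948871 to 52952901) had 14751 reads in replicate 1, which is 611 CPM with a 95% Wilson interval of 601 to 621. Replicate 2 had 13295 reads, at 599 CPM (589 to 609). It ranked number 211 of all 62700 genes by mean CPM. Per length it reached 387 ± 5.53 CPM/kb (SD, n = 2), the highest value of the 10 genes.

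Its type II partner KRT8 (ENSG00000170421.13) lies next to it on the minus strand, from 52897187 to 52949954. KRT8 had 13088 and 12225 reads, or 542 CPM (95% Wilson interval, 533 to 552) and 551 CPM (541 to 561). Per length it was at 324 ± 3.55 CPM/kb (SD, n = 2). The ratio of KRT8 to KRT18 per length was 0.822 in replicate 1 and 0.851 in replicate 2. On these lengths the type II chain was somewhat below its partner in both libraries. The length used for KRT8, 1687 bases, is that of KRT8-215, which was listed at 0 TPM in both libraries. The coding transcript KRT8-216, at 1.90 and 0.664 TPM, has 2126 bases. With that length KRT8 was at 255 CPM/kb in replicate 1, against 391 for KRT18, a wider gap. The ratio thus depends on the length taken for each gene: with the merged length of all annotated exons it was 0.422 ± 0.0107 (SD, n = 2). The 2 genes share 525 exonic bases on opposite strands, 7.63% of the exonic bases of KRT8 and 16.3% of those of KRT18. The library kit keeps strand, but the strand setting of the count is not given in the sources used here.

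The other simple keratins were lower. KRT19 (ENSG00000171345.13; chromosome 17, 41523617 to 41528308), the smallest keratin, which lacks a tail domain, had 3807 and 3394 reads, or 158 and 153 CPM. KRT7 (ENSG00000135480.17; chromosome 12, 52232520 to 52252186), a type II keratin of ducts and glands, had 2658 and 2056 reads, or 110 and 92.6 CPM. The exons of KRT7 share 282 bases, 6.89% of its exonic bases, with those of KRT7-AS on the opposite strand. KRT7-AS is named only for this overlap. Per length KRT7 was at 57.8 ± 7.06 CPM/kb (SD, n = 2), under both KRT19 and KRT8 in each library.

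Nearly all keratin reads fell in these 4 genes. Of the type II keratin genes, KRT7 and KRT8 held 99.96% of the reads in replicate 1 and 99.90% in replicate 2. Of the type I keratin genes, KRT18 and KRT19 held 99.1% in each library. Among the 50 other keratin genes 1 was detected, KRT10, at 5.28 ± 0.145 CPM (SD, n = 2), and 38 had no read in either library, among them KRT1, KRT12, KRT13, KRT2 and KRT20. KRT10 is a keratin of the upper epidermis. Its epidermal partner KRT1 was without a read, which leaves room for 0.124 and 0.135 CPM (3 reads) in the respective libraries. KRT5, the basal epidermal keratin, also had no read, and its partner KRT14, named for that role after its values were seen, had 0 and 6 reads.

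**Figure D2:**
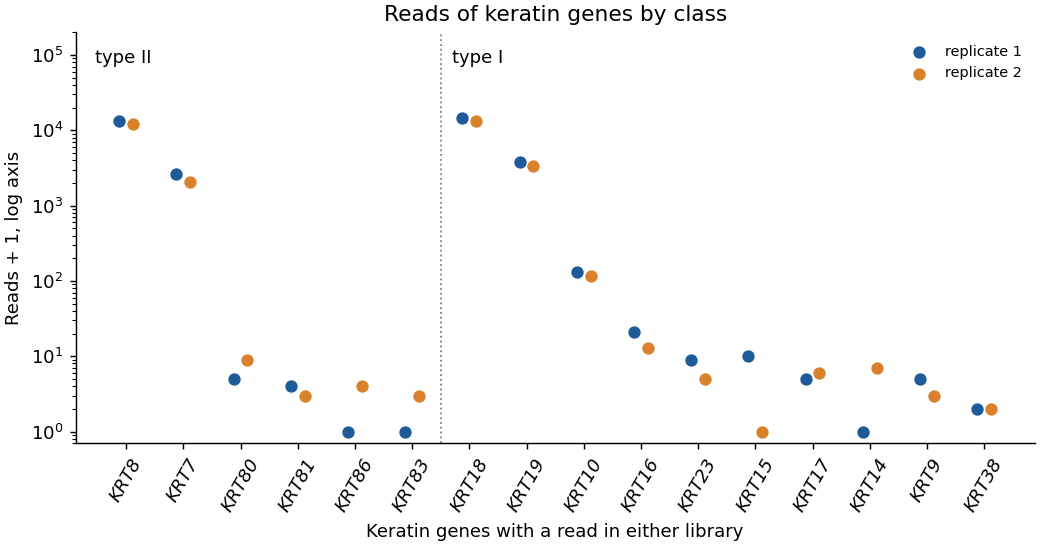
Reads plus 1 (log axis) of the keratin genes with a read in either library, type II on the left and type I on the right, with 1 point per library. KRT8, KRT7, KRT18 and KRT19 have at least 2056 reads in both libraries, KRT10 is next at 130 and 115 reads, and no other keratin gene exceeds 20 reads.

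KRT8 and KRT18 have many processed pseudogenes, copies of the mRNA with near-identical sequence, and reads can be shared with them. The gene table holds 51 genes named as KRT8 pseudogenes, of which 11 had a read. They held 232 reads in replicate 1, 1.74% of the reads of KRT8 and its copies (95% Wilson interval, 1.53 to 1.98), and 170 reads in replicate 2, 1.37% (1.18 to 1.59). KRT8P12 on chromosome 3 led with 154 and 113 reads, followed by KRT8P3 with 45 and 34. The 68 KRT18 pseudogenes held 14 and 21 reads, 0.0948% and 0.158% of the total with KRT18. KRT18P5 and KRT18P4 led these, with 3 or 4 reads in each library. The 5 KRT19 pseudogenes had no read. How the count treated reads with several matching places is not given in the sources used here.

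Vimentin, the filament protein of mesenchymal cells, was expressed beside the keratins. VIM (ENSG00000026025.16; plus strand of chromosome 10, 17228259 to 17237593) had 8951 reads in replicate 1, which is 371 CPM with a 95% Wilson interval of 363 to 379. Replicate 2 had 10207 reads, at 460 CPM (451 to 469), and the intervals, which cover counting error only, did not overlap. Per length VIM was at 222 ± 33.7 CPM/kb (SD, n = 2), the largest SD of the 10 genes on that scale. The ratio of VIM to the sum of KRT8 and KRT18 per length was 0.279 in replicate 1 and 0.347 in replicate 2. The antisense gene VIM-AS1 had 83 and 95 reads, and its exons share 641 bases with those of VIM. AL133415.1, also on the opposite strand and named only for this overlap, shares 619 exonic bases with VIM.

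Desmin, the muscle member of the same class, was near the limit of the libraries. DES (ENSG00000175084.13; chromosome 2, 219418377 to 219426739) had 5 and 6 reads, or 0.207 CPM (95% Wilson interval, 0.0885 to 0.485) and 0.270 CPM (0.124 to 0.590), and its matched transcripts were listed at 0 TPM. Nestin is a large filament protein of progenitor cells. NES (ENSG00000132688.11; minus strand of chromosome 1, 156668763 to 156677397) had 3969 and 3475 reads, or 164 and 157 CPM. Its coding transcript of 5558 bases is the longest of the 10, so that NES fell to the ninth place per length, at 28.9 ± 1.00 CPM/kb (SD, n = 2).

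Of 10 other intermediate filament genes 6 were detected, most of them neuronal. NEFL, the light neurofilament chain, had 57.5 ± 4.59 CPM (SD, n = 2), and INA, the neuronal chain alpha-internexin, had 52.0 ± 2.54 CPM (SD, n = 2). SYNM, PRPH and BFSP1 followed at 9.13 ± 0.0398, 5.56 ± 0.281 and 3.62 ± 1.04 CPM (SD, n = 2 each). The sixth, named to complete the list after its values were seen, was NEFH, the heavy neurofilament chain, with 51 and 38 reads. Of the 7 tested, NEFL alone differed between the libraries, at 60.8 and 54.3 CPM (edgeR exact binomial test, adjusted p of 0.041), and 1 of 7 is near the 13.1% of all genes that were called.

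All 3 lamin genes were expressed. The exons of LMNB2 share 257 bases, 4.73% of its exonic bases, with those of TIMM13 on the same strand. TIMM13 is named only for this overlap. LMNB2 (ENSG00000176619.13; minus strand of chromosome 19, 2427638 to 2456996) had the most reads of the 10 genes, 15966 and 14011, or 661 CPM (95% Wilson interval, 651 to 672) and 631 CPM (621 to 642). LMNB1 (ENSG00000113368.12; plus strand of chromosome 5, 126776623 to 126837020) had 7836 and 6904 reads, or 325 and 311 CPM. LMNA (ENSG00000160789.24; plus strand of chromosome 1, 156082573 to 156140089) had 12620 reads in replicate 1, at 523 CPM (514 to 532), and 12971 in replicate 2, at 584 CPM (574 to 594).

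Per length LMNA was at 174 ± 13.6, LMNB2 at 138 ± 4.59 and LMNB1 at 110 ± 3.35 CPM/kb (SD, n = 2 each). No single B-type gene was above LMNA on that scale, and the 2 B-type genes together exceeded it 1.55 times in replicate 1 and 1.33 times in replicate 2. The place of LMNA depends on the length taken. Per kilobase of merged exons both B-type genes were above it, LMNB2 at 119 ± 3.94 and LMNB1 at 87.5 ± 2.65, against 79.3 ± 6.22 for LMNA (SD, n = 2 each). Over its annotated transcripts with at least 90% of the longest coding sequence, LMNA ranged from 164 to 259 CPM/kb, which overlaps the same range of VIM, 163 to 246, and the foot of that of KRT8, 255 to 326.

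The promoters of the B-type lamins are shown because the transcript table separates the 2 start sites of LMNB1. RefSeq promoters (GRCh38.p14, 250 bases before to 50 after the start) were held for 6 of the 10 genes, and KRT7, KRT18, KRT19 and DES had no entry. Each sequence runs 5′ to 3′ on the gene's strand, and capitals mark matches, on either strand, to these letters: TATAAA for the TATA box, CCAAT for the CCAAT box, GGGCGG for the GC box and CACGTG for the E-box.
LMNB1 downstream start, chr5:126776886-126777185, plus strand: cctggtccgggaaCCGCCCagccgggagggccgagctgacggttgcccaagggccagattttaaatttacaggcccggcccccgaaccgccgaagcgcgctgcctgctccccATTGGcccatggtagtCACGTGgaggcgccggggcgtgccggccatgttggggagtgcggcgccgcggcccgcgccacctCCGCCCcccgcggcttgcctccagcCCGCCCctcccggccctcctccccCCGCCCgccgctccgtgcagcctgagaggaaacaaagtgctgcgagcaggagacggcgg
LMNB1 upstream start, chr5:126776373-126776672, plus strand: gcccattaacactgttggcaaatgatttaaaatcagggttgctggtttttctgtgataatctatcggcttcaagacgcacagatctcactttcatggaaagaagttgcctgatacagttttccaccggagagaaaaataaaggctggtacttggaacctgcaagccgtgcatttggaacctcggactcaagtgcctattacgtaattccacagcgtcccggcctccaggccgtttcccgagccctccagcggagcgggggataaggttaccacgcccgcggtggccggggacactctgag
LMNB2, chr19:2456910-2457209, minus strand: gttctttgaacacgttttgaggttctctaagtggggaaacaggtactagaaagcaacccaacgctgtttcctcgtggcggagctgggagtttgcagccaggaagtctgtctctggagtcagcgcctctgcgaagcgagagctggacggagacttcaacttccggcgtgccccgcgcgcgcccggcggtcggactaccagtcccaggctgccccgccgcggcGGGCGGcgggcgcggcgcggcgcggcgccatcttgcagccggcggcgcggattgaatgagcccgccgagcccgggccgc

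Transcripts starting within 50 bases of the downstream start held 99.8% of the TPM of LMNB1 in each library, 181 TPM in replicate 1 and 170 TPM in replicate 2. The upstream start had 1 such transcript, LMNB1-203, with 0.288 and 0.322 TPM. The downstream promoter has a GC content of 73.7% and held 1 CCAAT box, 4 GC boxes and 1 E-box, with no TATA box. The upstream promoter, with a GC content of 52.0%, matched none of the 4 motifs. The LMNB2 promoter, whose transcript LMNB2-201 held 97.3% and 96.5% of the gene's TPM, has a GC content of 67.7% and 1 GC box. Among all 35116 promoters in the table the median GC content was 58.7%. At least 1 match was found in 11.5% of them for the TATA box, 34.6% for the CCAAT box, 44.95% for the GC box and 7.26% for the E-box. A match is a match of letters and no evidence of binding.

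LMNB1 also had a second transcript that carried much of its TPM. LMNB1-201, which encodes the full protein of 586 residues, had 120 and 119 TPM, or 66.2% and 70.3% of the gene's TPM. LMNB1-208, annotated as a processed transcript without a coding sequence, had 59.9 and 47.9 TPM, or 33.0% and 28.2%. It has 11 exons, as LMNB1-201 has, but its first exon stops at 126777244 instead of 126777867. The 623 bases it lacks hold all 359 coding bases of the first exon, the start codon included. The junction of exons 1 and 2 sets the transcripts apart and is given as 15 bases of exon 1 in lower case and 15 bases of exon 2 in capitals, from GENCODE 29 transcripts.
LMNB1-201: ccagctgctcctcaaCTATGCTAAGAAGGA
LMNB1-208: ttcccgcgtgcgtgtCTATGCTAAGAAGGA

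In most of the other genes 1 coding transcript took nearly all TPM. The highest transcript held 99.6% ± 0.127 in VIM (VIM-201), 99.02% ± 0.116 in KRT18 (KRT18-201), 98.8% ± 0.261 in KRT19 (KRT19-201) and 92.0% ± 1.55 in KRT7 (KRT7-201) (SD, n = 2 each). NES has a single matched transcript. The share of the highest transcript differed between the libraries by 0.875 percentage points at the median, taken over the 7 genes that reach 10 TPM and have more than 1 matched transcript. Over all 7040 such genes the median was 3.01 points. Most of the 7 had shares of 90.9% or more, which can rise little, so the 2 medians do not rank stability. LMNB1 and LMNA moved most, by 4.13 and 3.99 points, both upward in replicate 2. TPM keeps no read numbers, and the precision of these shares is unknown. The RefSeq table's only VIM promoter lies at the start of VIM-209, which had 0.121 and 0 TPM.

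**Figure D3:**
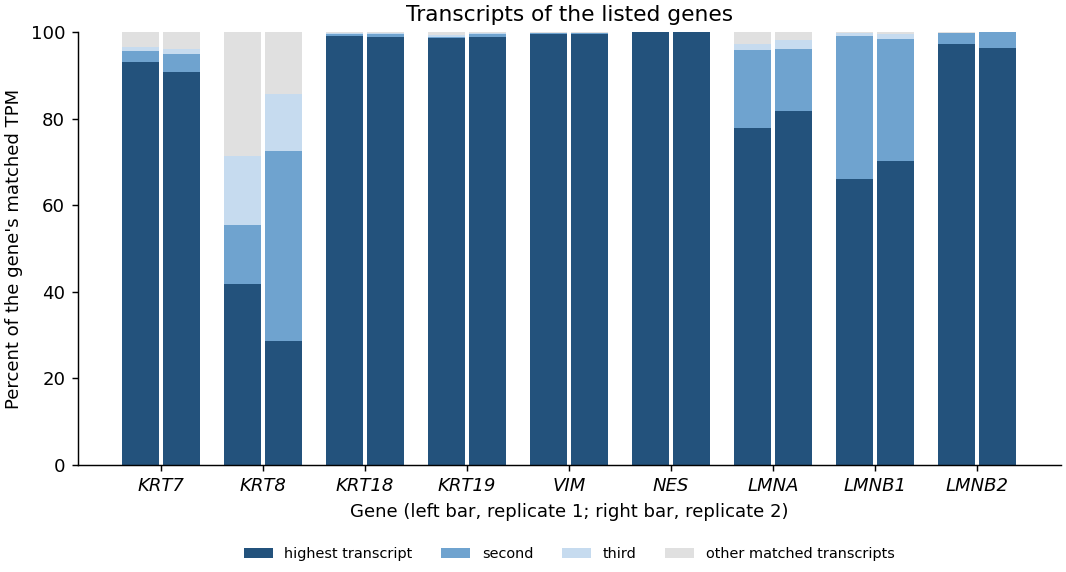
Percent of each gene's TPM, over transcripts matched to GENCODE 29, in its 3 highest transcripts and in the others, with replicate 1 on the left and replicate 2 on the right of each pair of bars. LMNB1 shows the second transcript at 33.0% and 28.2%, and the bars of KRT8 divide a total of only 4.56 and 2.32 TPM.

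KRT8 and LMNA could not be described at this level. The transcripts matched to KRT8 summed to 4.56 TPM in replicate 1 and 2.32 TPM in replicate 2, against 634 and 629 TPM for KRT18, which had a like number of reads. The reads of KRT8 were 133 and 289 times the number that its TPM and transcript lengths predict. For LMNA, at 57.9 and 69.9 TPM, they were 4.74 and 4.29 times the prediction. Across the 13508 genes compared, the median ratio was 1.11 in each library, and it exceeded 4 in 3.73% of them in replicate 1. The 7 other detected genes had ratios between 0.909 and 1.11. Of the 251955 deposited transcripts, 50288 had no match in GENCODE 29 and hence no gene here. Whether transcripts of KRT8 and LMNA are among these was not tested.

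**Figure D4:**
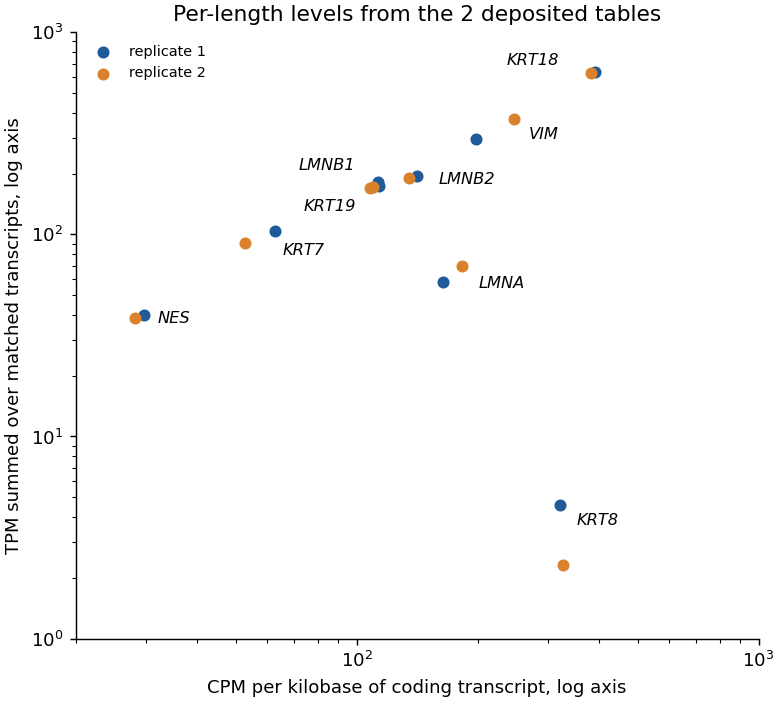
TPM summed over matched transcripts against CPM per kilobase of the coding transcript (both log axes) for the 9 detected genes, with 1 point per library. Of these, 7 rise together on both scales, while KRT8, at 2.32 to 4.56 TPM, and LMNA, at 57.9 to 69.9 TPM, lie below them.

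The balance of A-type and B-type lamins and of their isoforms is affected. By TPM the B-type genes summed to 5.83 ± 0.946 times LMNA (SD, n = 2), against 1.44 ± 0.159 times per kilobase of coding transcript (SD, n = 2). LMNA-206, which encodes prelamin A of 664 residues, had 45.04 and 57.1 TPM. LMNA-207, which encodes lamin C of 572 residues, had 0.0872 and 0.608 TPM, or 0.193% and 1.05% of their sum. LMNA-202, a coding transcript of 487 residues, had 10.5 and 9.96 TPM. Since the matched transcripts account for only a part of the LMNA reads, these shares do not describe lamin A and lamin C in the cells.

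The libraries were then set against each other. The exact binomial test of edgeR, two-sided and Benjamini-Hochberg adjusted over all genes, called 4 of the 9 genes tested, 2 higher and 2 lower in replicate 2. It called 13.1% of all 15299 genes, 6.49% higher and 6.65% lower. Of the 2161 genes whose mean was 100 CPM or more, a level that all 9 genes reach, it called 37.9%, with 18.4% lower in replicate 2, so that 4 of 9 is near the share of genes at this level. The test compares 2 libraries of 1 group, not conditions. It allows for counting error only, so a small p does not measure spread between replicates.

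VIM was higher in replicate 2, by 0.32 on the log2 scale (edgeR exact binomial test, adjusted p of 9.2e-49). Of the 2161 genes at 100 CPM or more, 98.9% had a smaller difference in size. LMNA was higher by 0.17 (edgeR exact binomial test, adjusted p of 9.5e-18), a size exceeding that of 90.7% of these genes. KRT7 was lower in replicate 2, with a log2 difference of -0.24 (edgeR exact binomial test, adjusted p of 3.5e-07), which exceeded 96.9% of them. LMNB2 had a difference of -0.063 (edgeR exact binomial test, adjusted p of 0.0029), close to the median size of 0.059.

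The other 5 did not pass. KRT8 and KRT18 had log2 differences of 0.027 and -0.024, with adjusted p of 0.38 and 0.42 in the edgeR exact binomial test. KRT19, LMNB1 and NES had differences of -0.040, -0.057 and -0.066, with adjusted p of 0.53, 0.10 and 0.21 in the edgeR exact binomial test. DES had too few reads to be tested. The median over the 9 genes was -0.040, and over all genes tested it was -0.0031.

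**Figure D5:**
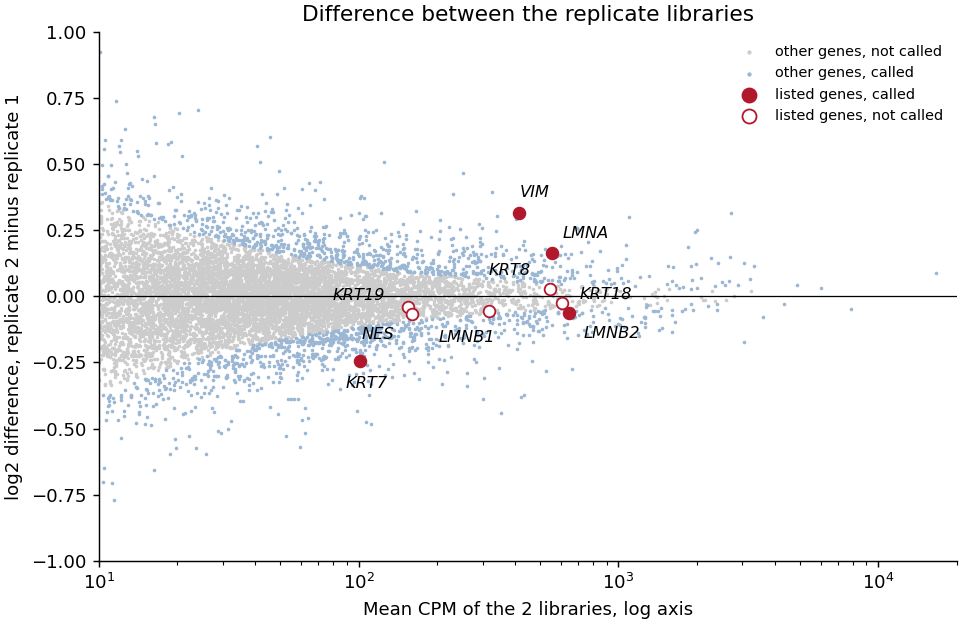
The log2 difference, replicate 2 minus replicate 1, against mean CPM (log axis, from 10 CPM), with the tested genes as small points and 9 of the 10 listed genes in red, filled where the exact binomial test called them. VIM at 0.32 and KRT7 at -0.24 stand at the edge of the genes of like level, while KRT8 and KRT18 lie next to 0.

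The called markers of fibroblasts and stroma and those of simple epithelium went both ways. Of the 6 fibroblast and stroma markers tested, COL3A1 and LUM were higher in replicate 2, at 8.78 and 14.6 CPM (edgeR exact binomial test, adjusted p of 2.4e-07) and at 9.28 and 13.1 CPM (adjusted p of 0.0018). COL1A2 was lower, at 455 and 424 CPM (edgeR exact binomial test, adjusted p of 4.2e-05). It held most of the sum of all 9 markers, 508 and 492 CPM. The median log2 difference of the 6 tested was 0.24, against -0.0031 over all genes tested. Of those not called, COL1A1 and THY1 had log2 differences of 0.28 and 0.21. PDGFRB, named to complete the list, had -0.64 with 31 and 18 reads. Of the 9 markers of simple epithelium, CDH1 was lower, at 328 and 308 CPM (edgeR exact binomial test, adjusted p of 0.0042), and CLDN4 was higher, at 47.9 and 54.4 CPM (adjusted p of 0.015). These 9 summed to 1650 and 1617 CPM, with a median log2 difference of -0.055. The test called 3 of 6 and 2 of 9 in the 2 lists, beside 13.1% of all genes and 37.9% of those at 100 CPM or more, where COL1A2 and CDH1 lie. The part of these changes in the difference of VIM was not tested.

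Partners of the lamins were present almost throughout. Of 18 genes of lamin processing and of the nuclear lamina 17 were detected, and the exception was SYNE1, with 31 and 21 reads, named after its value was seen. Prelamin A and the B-type lamins are farnesylated, trimmed and methylated at their ends. FNTA, a subunit of the farnesyltransferase, was at 72.1 ± 4.36 CPM, and ICMT, the methyltransferase, at 190 ± 10.9 CPM (SD, n = 2 each). ZMPSTE24, the protease that matures prelamin A, had 96.9 ± 1.23 CPM (SD, n = 2) and is named for its role, outside the rule for named genes. By TPM the chromatin-binding protein BANF1 led the list, with 402 and 396 TPM, followed by TMPO, LBR, FNTA and SUN1 at 94.2 to 111 TPM. This order rests on matched transcripts only. In replicate 1 the reads of BANF1 and FNTA were 0.560 and 0.583 times the number that TPM predicts. Per kilobase of coding transcript BANF1 also led, at 145 CPM/kb, while FNTA, at 39.2, was below ICMT, at 39.9. The receptor LBR, which holds B-type lamins and chromatin at the envelope, had 253 ± 2.71 CPM (SD, n = 2).

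Between the libraries 1 of these 18 was higher and 2 were lower in replicate 2, so that 3 of 18 were called, near the 13.1% of all genes. TOR1AIP1, a lamina-binding membrane protein, had 55.4 CPM in replicate 1 and 62.3 in replicate 2 (edgeR exact binomial test, adjusted p of 0.018). ICMT had 198 and 183 CPM (edgeR exact binomial test, adjusted p of 0.0044). SYNE2, a giant protein that links the nuclear envelope to the cytoskeleton, had 95.3 and 74.5 CPM (edgeR exact binomial test, adjusted p of 3.9e-12). The median log2 difference of the list was -0.017.

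Linkers of cytoplasmic filaments were also widely detected, 12 of 14, of which 6 were lower and 0 higher in replicate 2. Over all genes tested 6.65% were lower, and of those at 100 CPM or more 18.4%, a level that 4 of the 6 reach (JUP, DSP, PLEC and PKP3). JUP, the desmosomal plakoglobin, led by TPM with 225 and 216 TPM, and had 519 and 495 CPM (edgeR exact binomial test, adjusted p of 0.0079). DSP, the desmoplakin that anchors keratins at desmosomes, had 304 and 269 CPM (edgeR exact binomial test, adjusted p of 1.3e-09). PLEC, the plectin that binds keratins and vimentin, had 190 and 152 CPM (edgeR exact binomial test, adjusted p of 1.2e-19). MACF1, a giant linker of actin and microtubules, had 107 and 85.5 CPM (edgeR exact binomial test, adjusted p of 1.3e-11).

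The others lower in replicate 2 were DST, at 23.3 and 18.6 CPM, and the desmosomal plakophilin PKP3, at 131 and 119 CPM, with adjusted p of 0.0071 and 0.0044 in the edgeR exact binomial test. PKP4, another plakophilin, had 100.2 and 99.7 CPM. Transcript length moved with these differences. Among 430 tested genes with a coding transcript of at least 10 kb, 27.4% were lower in replicate 2 with a median log2 difference of -0.11, against 6.13% and 0.0057 among 6684 genes of 2 to 5 kb. The coding transcripts of PLEC, DST and MACF1 have 15249, 22431 and 24319 bases, that of DSP has 9796, and those of JUP and PKP3 have 3200 and 2809. SYNE2, the lamina partner lower in replicate 2, has one of 21842 bases. The part of length in the result was not tested.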

How the data were processed

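Per the submitters' processing notes, Trim Galore 0.6.10, STAR 2.7.11a, Salmon 1.10.2 and DESeq2 were used with GRCh38; the annotation and counter are not given in the sources used here. The deposited transcript table holds TPM. The deposited gene table is named CPM, but its signal is a size-scaled count: 100% of values above 0 were whole multiples of 1 step (tolerance of 1e-06 reads), and whole reads were recovered. Depth was 24137664 and 22198929 reads; 3 reads are 0.124 and 0.135 CPM. Wilson intervals cover counting error only.

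TPM was summed per gene through GENCODE 29 (201667 of 251955 transcripts, 94.8% of TPM in each library). Per-length levels had been planned as this sum, which for KRT8 and LMNA is far below what their reads predict, so CPM per kilobase of the transcript with the longest coding sequence (ties by TPM), chosen after seeing the data, is shown beside it. The libraries were compared with edgeR 4.0.16 (binomTest, TMM, filterByExpr, adjusted p threshold of 0.05). The test was tried on simulated data that held counting error only, so the trial does not cover other spread between libraries. Alternatives were DESeq2 1.42.0 size factors, total reads, no filter, pseudocounts, thresholds, length definitions and each library alone. Named genes were the 10 genes, the up to 5 highest by TPM in each list, every list gene called, up to 5 genes without a read, the 2 leading pseudogenes and 3 leading transcripts. Genes named outside this are marked, or given as the defining markers of their cell type. With 2 libraries no genes of like pattern were sought. The genes and lists were chosen with earlier results of these data known. Results of the Sertoli and Leydig (3 of 6 detected) and squamous (2 of 7) markers are given here only. No column of values was left unused.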

Additional observations from a re-analysis of the deposited data

How the results depend on the processing

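No paired analysis was possible because both libraries belong to 1 group. Leaving out a library leaves no comparison between libraries, so the calls have no such value.

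The ratio of KRT8 to KRT18, 0.00544 by TPM summed per gene, was 0.00235 with coding transcripts only, 0.0141 with pseudogenes added, 0.422 per kilobase of merged exons and 0.836 per kilobase of coding transcript. On the last 2 scales the ratio of type II to type I keratins, 0.125 by TPM, was 0.405 and 0.760, that of B-type to A-type lamins, 5.83 by TPM, was 2.62 and 1.44, and that of VIM to KRT8 and KRT18, 0.525 by TPM, was 0.301 and 0.313. By TPM, KRT8 and LMNA were below what their reads predict. KRT8 pseudogenes took 62.6% by TPM against 1.56% of reads. The log2 difference of KRT8, 0.027 by reads, reversed to -0.74 with TPM, and the cause was not tested. Of the 10 places in the order by TPM, 3 were kept per kilobase of merged exons and 2 per kilobase of coding transcript.

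The exact binomial test called 4 genes with each scaling and without a filter. A log2 difference of at least 0.5 was reached by 0 genes with CPM at a pseudocount of 1 or 0.1, and by 1, KRT8, with TPM. Lowering the detection threshold to 0.1 CPM added DES. Among the 10 genes depth limits DES most, whose 5 and 6 reads have overlapping intervals.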
